A study of Mus musculus with 12 samples.

Results

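The interaction of angiotensin II (Ang II) and miR-214 genotype was measured gene by gene in RNASeq counts of splenic T cells. It is the log2 change after Ang II in miR-214-/- mice minus the log2 change after Ang II in wild-type (WT) mice. The same number is the genotype difference under Ang II minus the genotype difference in sham. A negative value means that the change in miR-214-/- lay below the change in WT, and a positive value that it lay above. Every gene that passed a filter on low counts was kept, which left 16770 of 49315 genes, and all 12 of 12 libraries entered the fit.

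The 4 groups held 3 mice each, with 1 library per mouse. WT mice were C57BL/6 and miR-214-/- mice carried a deletion of the miR-214 gene in all cells, so T cells were not the only cells to lack it. The genetic background of the miR-214-/- mice was not given for these animals. Mice were male and 12 weeks old, and were infused for 14 days by osmotic minipump, with sham buffer or with Ang II at a daily dose of 490 ng/kg. T cells were taken from spleens by magnetic removal of other cells, and mRNA was captured by its poly(A) tail.

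Ang II is the effector peptide of the renin-angiotensin system and raises blood pressure when infused, and T cells take part in the hypertension and vascular stiffening that follow. MicroRNAs are short RNAs that pair through their seed, the bases near the 5′ end, with sites in the 3′ untranslated region (UTR) of target mRNAs, which lowers the stability or translation of those mRNAs. miR-214 is made in T cells after activation. The mature strands below are shown because the deletion removes both, and the capitals mark the seed at bases 2 to 8. They come from RefSeq and lie on the plus strand of GRCm38 at chr1:162223438-162223459 and chr1:162223397-162223418.

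mmu-miR-214-3p: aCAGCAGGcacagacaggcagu
mmu-miR-214-5p: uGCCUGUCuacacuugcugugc

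The genotype could not be checked from these counts. Mir214 and its neighbour Mir199a-2 had 0 counts in every library, their host transcript Dnm3os had 1 count in all libraries together, and Dnm3, on the opposite strand, had between 5 and 25 counts per library. Total counts per library were between 21126874 and 29605988. Levels are given below in CPM, a gene's counts per 1000000 counts of its library, scaled by the trimmed mean of M values, with libraries in the order of their numbers. Component 1 of the 500 most variable genes held 57.1% of the variance, and on it miR-214-/- sham library 1 (-35.8) lay among the WT sham libraries (-41.4 to -2.93) while miR-214-/- Ang II library 1 (28) lay among the WT Ang II libraries (10.5 to 40.5). The other miR-214-/- sham libraries stood at 16.1 and 14.7 and the other miR-214-/- Ang II libraries at -8.41 and -29.3, so on this axis the order of treatments was turned round in them.

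One gene, Frmd4a, was called for the interaction by edgeR's quasi-likelihood test at a Benjamini-Hochberg adjusted p under 0.05, which is 0.00596% of the genes tested. At an unadjusted p under 0.05 there were 2483 genes (14.8%), of which 1385 (8.26%) were negative and 1098 (6.55%) positive. DESeq2's Wald test called 444 of 13771 genes (3.22%), with 349 (2.53%) negative and 95 (0.69%) positive. Among single libraries left out, the count moved most with miR-214-/- Ang II library 1, and without it edgeR called 919 of 17172 genes (5.35%), with 650 (3.79%) negative and 269 (1.57%) positive. limma voom with sample quality weights called 1345 (8.02%), with 850 (5.07%) negative and 495 (2.95%) positive. Of the 444 genes called by DESeq2, 346 were among these 919.

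**Figure D1:**
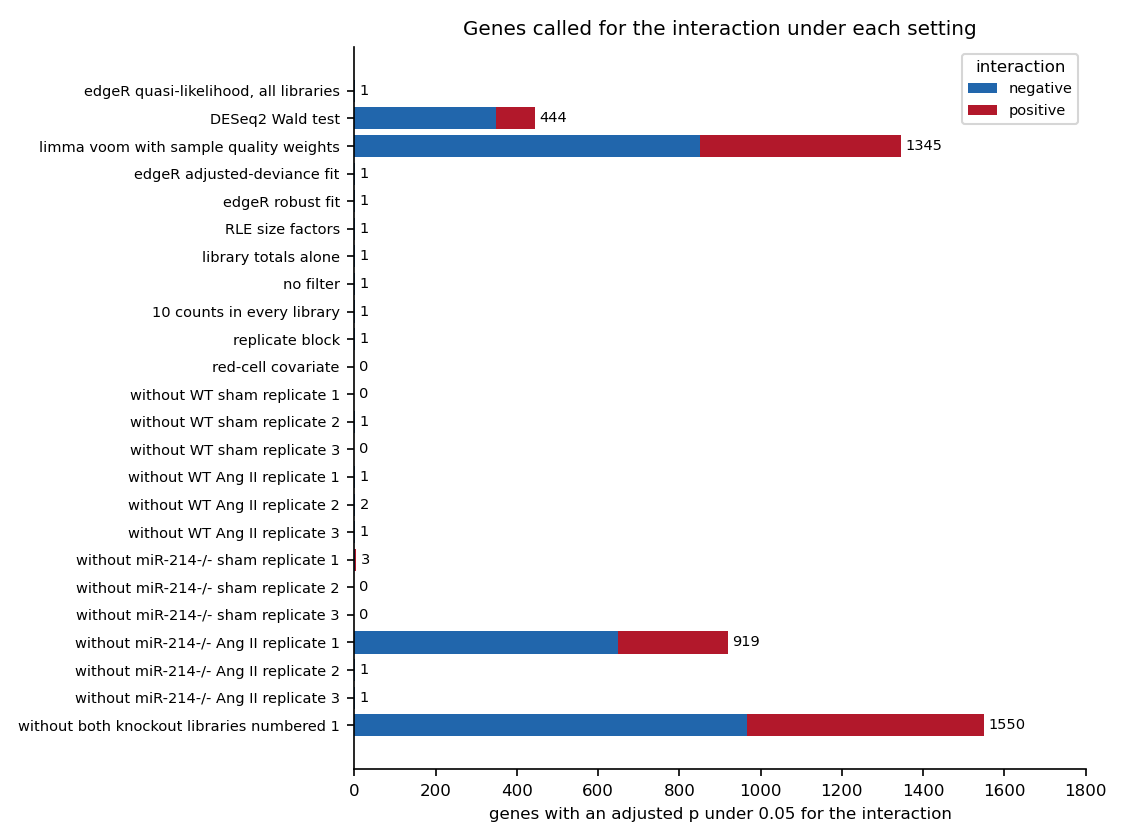
Genes called for the interaction at an adjusted p under 0.05, as bars stacked by sign, for each test, scaling, filter and left-out library. Leaving out miR-214-/- Ang II library 1 gave 919 genes, while leaving out any other single library gave between 0 and 3.

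The 1385 genes with a negative interaction at an unadjusted p under 0.05 had a median change after Ang II of 1.22 in WT and 0.11 in miR-214-/-, on the log2 scale. Their median genotype difference was 0.45 in sham and -0.59 under Ang II. In 901 of them the change had the same sign in both genotypes, and in 484 the sign was opposite. The WT change was the larger of the pair, in absolute size, in 91.8%. For the 1098 genes with a positive interaction the median change was -0.44 in WT and 0.16 in miR-214-/-, and 824 of them had opposite signs. These genes were picked by the interaction itself, so the medians describe its shape and test nothing.

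**Figure D2:**
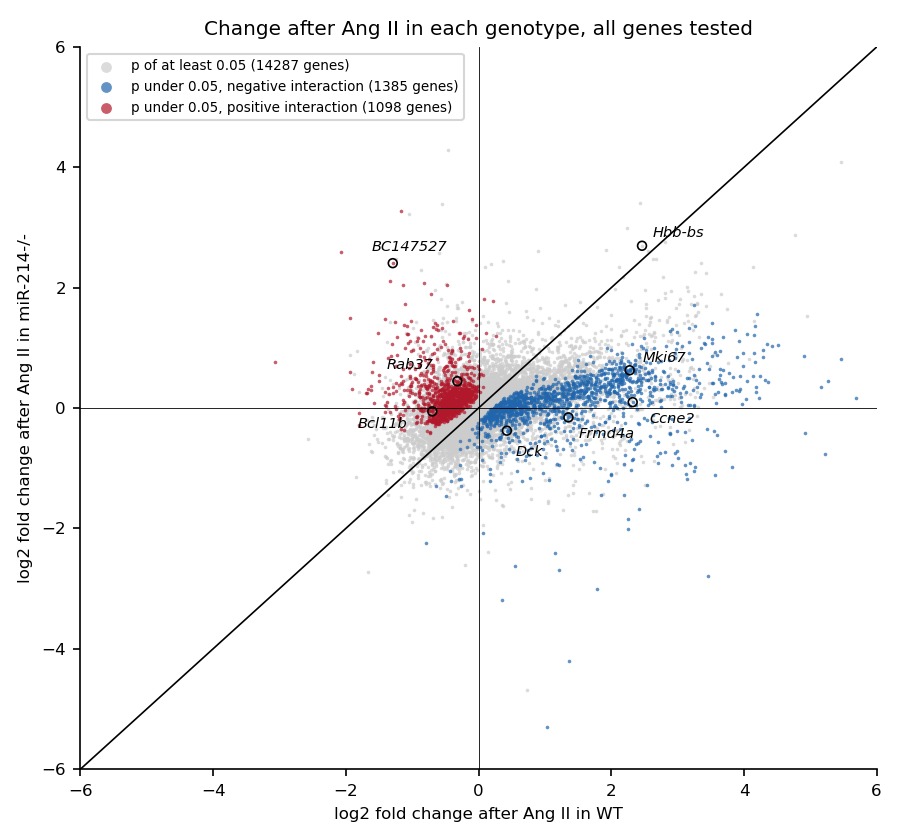
Log2 change after Ang II in miR-214-/- against the log2 change after Ang II in WT for the genes tested, where distance below the diagonal is a negative interaction and distance above it a positive one. Frmd4a stands at 1.35 in WT and -0.16 in miR-214-/-, and 8 genes lie outside the axes.

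Frmd4a (ENSMUSG00000026657, chr2:4017717-4614043, plus strand, GRCm38) encodes a FERM-domain scaffold protein known from epithelial polarity. It measured 18.1, 19.9 and 17.0 CPM in WT sham, 46.9, 50.6 and 43.0 in WT Ang II, 25.0, 28.5 and 26.9 in miR-214-/- sham and 26.0, 24.8 and 21.4 in miR-214-/- Ang II. All 3 WT Ang II libraries were above all others, the miR-214-/- sham libraries were above the WT sham libraries, and the miR-214-/- groups overlapped. On the log2 scale Ang II moved it by 1.35 in WT and by -0.16 in miR-214-/-, and the interaction was -1.51 ± 0.15 (log2, SE), with an adjusted p of 0.0109 by edgeR's quasi-likelihood test and 2.89e-16 by DESeq2. Leaving out WT sham library 1, WT sham library 3, miR-214-/- sham library 2 or miR-214-/- sham library 3 took edgeR's adjusted p to 0.0650, 0.0534, 0.0615 and 0.0563 in that order. Over all leave-one-out fits the interaction stayed between -1.57 and -1.43.

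By a rule, the 12 protein-coding genes with the smallest interaction p in each direction and a mean log2 CPM above 1 are described next. All 24 were called by DESeq2, and edgeR gave an adjusted p of 0.213 for each of them apart from Frmd4a. The negative genes were Frmd4a, Atad2, Dek, Cenpe, Strip2, Ccne2, Ipmk, Sap30, Depdc1a, Map2k3, Dck and Mki67, with interactions between -2.22 and -0.64. In all 12 the WT Ang II libraries were above the WT sham libraries without overlap (background over all genes 18.7%), and in all 12 the miR-214-/- Ang II libraries were below the WT Ang II libraries (5.86%). In 11 of them, Map2k3 being the exception, the miR-214-/- sham libraries were above the WT sham libraries (5.43%). The rule used the same contrast, so nothing is read from these shares.

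Several of the negative genes serve cell division. Mki67, the proliferation antigen Ki-67 that coats mitotic chromosomes, measured 116, 124 and 143 CPM in WT sham, 611, 606 and 639 in WT Ang II, 156, 257 and 270 in miR-214-/- sham and 483, 288 and 285 in miR-214-/- Ang II. Cenpe, a kinesin that moves chromosomes at the kinetochore, measured 14.4, 13.6 and 15.4 CPM in WT sham, 57.5, 58.5 and 61.2 in WT Ang II, 19.9, 27.5 and 26.3 in miR-214-/- sham and 49.0, 28.2 and 30.5 in miR-214-/- Ang II. In both genes the groups did not overlap and stood in the order WT sham, miR-214-/- sham, miR-214-/- Ang II, WT Ang II, with miR-214-/- Ang II library 1 well above the other 2 libraries of its group. Their interactions were -1.65 ± 0.32 and -1.48 ± 0.27, with DESeq2 adjusted p of 2.02e-04 and 1.57e-04. Depdc1a, a mitotic regulator, measured 2.88, 2.86 and 3.23 CPM in WT sham, 14.0, 12.8 and 13.5 in WT Ang II, 4.24, 5.67 and 6.62 in miR-214-/- sham and 10.9, 6.22 and 7.51 in miR-214-/- Ang II, with an interaction of -1.59 ± 0.31. Its WT groups stood far apart and its miR-214-/- groups overlapped.

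Ccne2, the cyclin E2 that drives entry into S phase, measured 5.76, 6.43 and 6.65 CPM in WT sham, 22.3, 36.1 and 35.9 in WT Ang II, 8.56, 13.8 and 15.8 in miR-214-/- sham and 19.1, 12.2 and 9.56 in miR-214-/- Ang II. WT Ang II lay above every other library, and in miR-214-/- the treatment groups overlapped. The log2 difference between Ang II and sham was 2.32 in WT and 0.10 in miR-214-/-, and the interaction of -2.22 ± 0.41 was the most negative of the 12. Atad2, a chromatin ATPase of dividing cells, measured 83.5, 93.6 and 90.5 CPM in WT sham, 135, 138 and 142 in WT Ang II, 106, 117 and 125 in miR-214-/- sham and 117, 95.5 and 110 in miR-214-/- Ang II. Dek, an abundant chromatin protein, measured 193, 176 and 204 CPM in WT sham, 312, 334 and 341 in WT Ang II, 229, 231 and 231 in miR-214-/- sham and 273, 241 and 252 in miR-214-/- Ang II. Their interactions were -0.74 ± 0.12 and -0.64 ± 0.11. In Atad2 the miR-214-/- treatment groups overlapped, and in Dek miR-214-/- Ang II was above miR-214-/- sham without overlap.

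The remaining negative genes act outside mitosis. Dck, the kinase that salvages deoxynucleosides for DNA synthesis, measured 82.6, 93.2 and 85.0 CPM in WT sham, 96.0, 135 and 120 in WT Ang II, 101, 115 and 108 in miR-214-/- sham and 88.4, 82.1 and 79.3 in miR-214-/- Ang II. It was higher after Ang II in every WT library and lower after Ang II in every miR-214-/- library, the one gene of the 12 with this crossing (background 10.3% for lower in miR-214-/-), and its interaction was -0.80 ± 0.16. Map2k3, the kinase upstream of p38, measured 36.3, 43.2 and 45.5 CPM in WT sham, 60.7, 69.3 and 64.3 in WT Ang II, 45.0, 47.2 and 49.3 in miR-214-/- sham and 49.5, 44.6 and 44.2 in miR-214-/- Ang II, with an interaction of -0.67 ± 0.13. Its sham groups overlapped and WT Ang II stood apart from the rest. Strip2 (-1.85 ± 0.34), a subunit of the STRIPAK phosphatase complex, Ipmk (-0.66 ± 0.12), an inositol polyphosphate kinase, and Sap30 (-1.13 ± 0.22), a subunit of a histone deacetylase complex, likewise had their highest levels in WT Ang II and overlapping levels in the miR-214-/- groups.

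**Figure D3:**
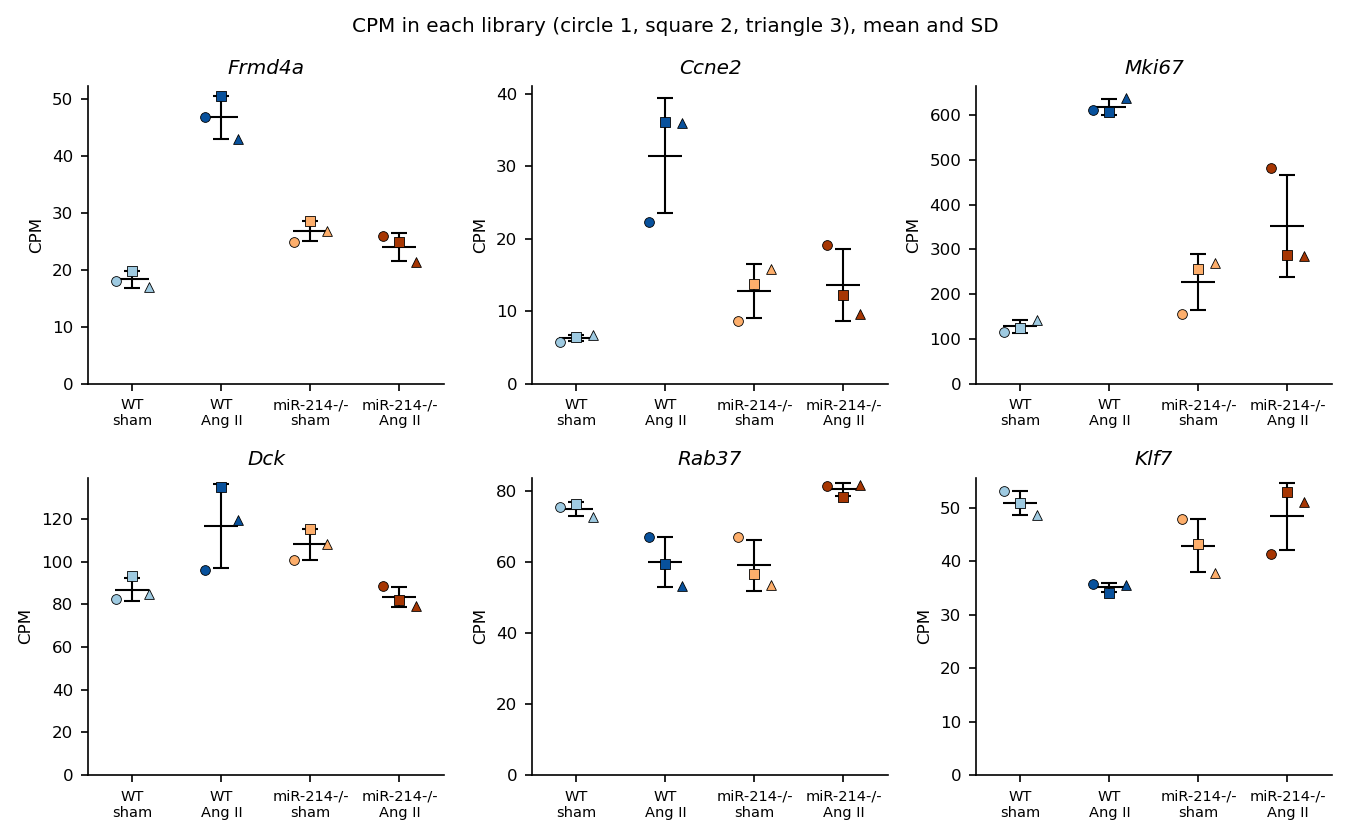
CPM of 6 genes in each library of the 4 groups (circle, square and triangle for libraries 1, 2 and 3), with bars for the mean and SD of 3 libraries. Frmd4a stands highest in WT Ang II (43.0 to 50.6 CPM), and in Mki67 the library nearest to WT Ang II is miR-214-/- Ang II library 1 (483 CPM).

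Cell-cycle genes of this kind often share promoter elements, the cell cycle homology region (TTTGAA) read by the DREAM complex and the CCAAT box read by NF-Y. The 250 bases before the RefSeq start of Frmd4a and of 3 mitotic genes are printed to show these letters, on the strand of the gene, with matches on either strand in capitals (TTTGAA or TTCAAA, and CCAAT or ATTGG). None of the matches shared a base. The windows lie in GRCm38.p6 at chr2:4017433-4017682 (plus strand, Frmd4a), chr7:135716380-135716629 (minus strand, Mki67), chr3:159495183-159495432 (plus strand, Depdc1a) and chr3:135212313-135212562 (plus strand, Cenpe).

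Frmd4a: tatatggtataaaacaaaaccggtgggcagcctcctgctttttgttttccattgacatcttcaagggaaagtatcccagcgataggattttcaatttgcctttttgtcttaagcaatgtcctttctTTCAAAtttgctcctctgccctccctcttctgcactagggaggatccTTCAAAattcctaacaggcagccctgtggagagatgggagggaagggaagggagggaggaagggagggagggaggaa
Mki67: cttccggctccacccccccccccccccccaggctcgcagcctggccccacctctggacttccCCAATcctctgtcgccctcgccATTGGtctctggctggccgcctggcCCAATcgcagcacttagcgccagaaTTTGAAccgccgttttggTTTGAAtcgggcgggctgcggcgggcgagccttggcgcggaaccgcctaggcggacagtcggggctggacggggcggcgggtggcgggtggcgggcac
Depdc1a: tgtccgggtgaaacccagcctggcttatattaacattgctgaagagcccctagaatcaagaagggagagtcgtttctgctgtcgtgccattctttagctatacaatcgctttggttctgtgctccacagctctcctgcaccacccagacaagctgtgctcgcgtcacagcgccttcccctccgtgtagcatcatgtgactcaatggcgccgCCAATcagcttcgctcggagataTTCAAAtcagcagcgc
Cenpe: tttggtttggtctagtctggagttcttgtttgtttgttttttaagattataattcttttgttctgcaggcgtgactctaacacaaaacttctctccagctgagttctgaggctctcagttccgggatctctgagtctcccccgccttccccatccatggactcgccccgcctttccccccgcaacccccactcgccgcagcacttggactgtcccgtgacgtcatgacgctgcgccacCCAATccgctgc

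The Frmd4a window held 2 TTTGAA matches, both on the minus strand, and no CCAAT. The Mki67 window held 2 TTTGAA and 3 CCAAT, the Depdc1a window 1 of each, and the Cenpe window 1 CCAAT. Of the 12 negative genes 10 had a RefSeq promoter, with TTTGAA in 4 and CCAAT in 6. Both were in 2, Mki67 and Depdc1a, whose windows are among those printed. Of the 12 positive genes 9 had a RefSeq promoter, with TTTGAA in 0, CCAAT in 3 and both in 0. Over all 27025 promoters TTTGAA was in 16.3% and CCAAT in 34.5%, and over the 11148 tested genes with a promoter in 11.1% and 36.1%. The shares are descriptions over few windows and no test was made of them.

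In the mitosis list described below, 22 of 26 genes had a promoter, with TTTGAA in 7 (31.8%), CCAAT in 16 (72.7%) and both in 7, against both in 5.72% of all promoters and 4.15% of those of tested genes. TTTGAA was more common in the regulatory T cell list (3 of 6, 50%) and the macrophage and monocyte list (3 of 8, 37.5%). It was less common in the other lists, with 3 of 18 (16.7%) in DNA replication. An E2F element (GGCGGGA) was in 7 of the 22 mitotic promoters (31.8%), against 9.88% of all promoters and 17.5% of those of tested genes. The TGF-beta list had it in 3 of 9 (33.3%), the immediate early list in 4 of 13 (30.8%) and DNA replication in 4 of 18 (22.2%). A GATA element (AGATAA), sought because GATA1 drives red-cell genes, was in 10.2% of all promoters and 6.23% of those of tested genes. It was in 6 of 17 promoters of the red-cell list (35.3%), but in 1 of 6 of the haem list (16.7%) and 0 of 6 of the megakaryocyte list. The basophil and mast cell list had it in 4 of 6 (66.7%) and the T cell activation list in 4 of 14 (28.6%). Chemokine receptors had it in 3 of 14 (21.4%), known miR-214 targets in 2 of 11 (18.2%) and the mitosis list in 1 of 22.

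The positive genes included Sfxn3, Rab37, BC147527, Ephb6, Plekhg2, Aff3, Dgke, Klf7, Slc16a5, Gimap5 and AW011738, and the 12 interactions lay between 0.38 and 3.70. In all 12 the WT Ang II libraries were below the WT sham libraries without overlap (background 21.4%). In 11 the miR-214-/- sham libraries were below the WT sham libraries (4.75%), Dgke being the exception, and in 11 the miR-214-/- Ang II libraries were above the WT Ang II libraries (7.96%), Sfxn3 being the exception. In 3 of them, Rab37, BC147527 and Slc16a5, miR-214-/- Ang II was also above miR-214-/- sham (8.68%). These shares too come from the contrast that chose the genes.

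Rab37, a small GTPase of secretory vesicles, measured 75.7, 76.3 and 72.6 CPM in WT sham, 67.2, 59.5 and 53.2 in WT Ang II, 67.2, 56.6 and 53.6 in miR-214-/- sham and 81.5, 78.5 and 81.7 in miR-214-/- Ang II. WT sham and miR-214-/- Ang II were the high groups, and the other groups overlapped each other at lower levels. Its interaction was 0.77 ± 0.14. BC147527 had the most positive interaction, 3.70 ± 0.70 with a DESeq2 adjusted p of 4.84e-05, and measured 8.68, 10.2 and 12.8 CPM in WT sham, 6.43, 1.03 and 5.46 in WT Ang II, 1.58, 1.25 and 1.72 in miR-214-/- sham and 6.63, 10.1 and 7.51 in miR-214-/- Ang II. WT Ang II library 2 had the lowest value, and the miR-214-/- sham libraries all lay between 1.25 and 1.72 CPM. Slc16a5, a monocarboxylate transporter family member, had an interaction of 1.59 ± 0.34, the WT part of which was -0.67 and the miR-214-/- part 0.92.

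Klf7, a Krüppel-like transcription factor, measured 53.1, 50.9 and 48.5 CPM in WT sham, 35.7, 34.1 and 35.5 in WT Ang II, 47.8, 43.2 and 37.8 in miR-214-/- sham and 41.3, 52.9 and 51.0 in miR-214-/- Ang II. WT Ang II was the lowest group without overlap and the miR-214-/- treatment groups overlapped, and the interaction was 0.71 ± 0.15. Sfxn3, a mitochondrial serine carrier, measured 96.2, 90.0 and 95.3 CPM in WT sham, 68.8, 68.2 and 63.5 in WT Ang II, 70.0, 68.0 and 65.6 in miR-214-/- sham and 67.7, 77.8 and 81.0 in miR-214-/- Ang II. In Sfxn3 every WT sham library was above every library of the other groups, and its interaction was 0.64 ± 0.10. Gimap5, a GTPase needed for lymphocyte survival, had an interaction of 0.53 ± 0.12, and Aff3, a nuclear elongation factor family member, the smallest of the 12 at 0.38 ± 0.08.

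Gene lists of pathways and cell types were set beside the interaction of all genes tested, whose median was 0.01. edgeR called 0 members of the 24 lists at an adjusted p under 0.05, so the lists are described by sign, by the number at an unadjusted p under 0.05 (background 8.26% negative, 6.55% positive) and by DESeq2's calls (2.53% and 0.69%). All 26 genes of mitosis and chromosome segregation were negative, with a median of -1.64. All 26 were at an unadjusted p under 0.05, and DESeq2 called 25, Ccnb1 being the exception. All 22 genes of DNA replication were negative as well, with a median of -1.12, 20 at an unadjusted p under 0.05 and 10 called by DESeq2. The members share the cells they come from and are not independent of each other.

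The mitotic genes had a median change after Ang II of 2.21 in WT and 0.55 in miR-214-/-, a median genotype difference of 0.81 in sham and one of -0.81 under Ang II. Their mean log2 CPM was 3.60, 3.97 and 3.86 in WT sham, 5.69, 6 and 6.02 in WT Ang II, 4.15, 4.79 and 4.81 in miR-214-/- sham, and 5.70, 4.66 and 4.73 in miR-214-/- Ang II. Library 1 of miR-214-/- Ang II stood at the level of WT Ang II, and the other 2 libraries of that group stood just below miR-214-/- sham libraries 2 and 3. Without miR-214-/- Ang II library 1, edgeR called all 26 mitotic genes and 21 of the 22 replication genes as negative (background 3.79%). That library was singled out, here and for the lists below, because leaving it out moved the count of called genes most. Leaving out any other single library gave between 0 and 3 called genes over all genes tested. The list calls made without it are descriptions, and nothing is read from them. In the replication list Rrm2, the ribonucleotide reductase subunit that limits deoxynucleotide supply, measured 19.7, 31.2 and 32.9 CPM in WT sham, 113, 197 and 181 in WT Ang II, 33.0, 63.4 and 65.8 in miR-214-/- sham and 131, 58.1 and 53.6 in miR-214-/- Ang II, with an interaction of -1.97 ± 0.53. Its highest values outside WT Ang II were again in miR-214-/- Ang II library 1. Cdc45, part of the replicative helicase, had one of -1.48 ± 0.41, and the sliding clamp Pcna one of -0.66 ± 0.23, with a DESeq2 adjusted p of 0.0889.

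**Figure D4:**
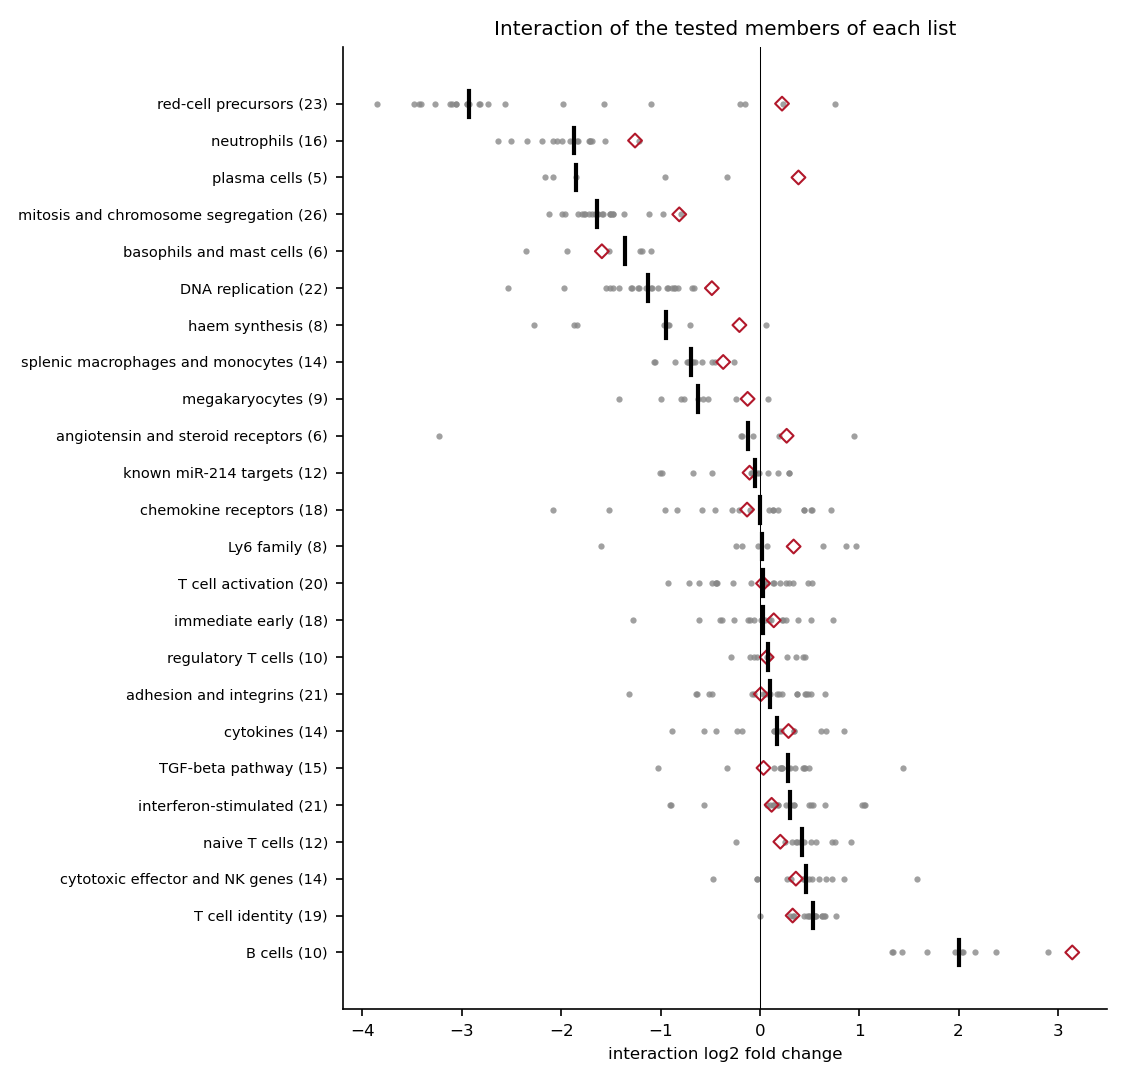
Interaction of each tested member of the gene lists on the log2 scale, with the list's median as a black bar and its median in the fit with the red-cell covariate as a red diamond. The mitotic genes lie between -2.12 and -0.79, all below 0, while the 19 T cell identity genes all lie above 0.

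In bulk RNA, a change in the number of cells of a type and a change in RNA per cell cannot be told apart. T cell identity genes were the strongest marker list in 11 of 12 libraries, with sums between 5442 and 9408 CPM. In WT Ang II library 1 the red-cell precursor markers (6548 CPM) exceeded them (6446 CPM). The red-cell sums were 637 to 773 CPM in WT sham, 2975 to 6548 in WT Ang II, 504 to 1411 in miR-214-/- sham and 863 to 5115 in miR-214-/- Ang II. No tested member of the 8 marker lists was at 0 in any library.

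Of 23 tested red-cell precursor genes 21 were negative, with a median interaction of -2.93, 19 at an unadjusted p under 0.05 and 1 called by DESeq2. The called gene, Tfrc, the transferrin receptor through which dividing and haemoglobin-making cells take up iron, measured 68.2, 70.1 and 68.8 CPM in WT sham, 168, 312 and 254 in WT Ang II, 66.3, 124 and 116 in miR-214-/- sham and 167, 110 and 89.4 in miR-214-/- Ang II, with an interaction of -1.56 ± 0.40 and a DESeq2 adjusted p of 0.00566. In Tfrc WT Ang II stood apart above WT sham, and the miR-214-/- treatment groups overlapped. The lowest WT Ang II library (168 CPM) was only just above the highest miR-214-/- Ang II library (167 CPM). Over all 12 libraries the beta-globin Hbb-bs did not follow Tfrc, though without miR-214-/- Ang II library 2 its interaction was -1.96. It measured 214.2, 127 and 187 CPM in WT sham, 2147, 572 and 190 in WT Ang II, 117, 121 and 120 in miR-214-/- sham and 113, 1977 and 228 in miR-214-/- Ang II, its highest values were in WT Ang II library 1 and miR-214-/- Ang II library 2, and its interaction was 0.23 ± 1.35. Of the 8 genes of haem synthesis 7 were negative with a median of -0.94, 6 of them at an unadjusted p under 0.05, and DESeq2 called Urod (-0.92 ± 0.27, adjusted p = 0.0317), which makes coproporphyrinogen. The haem median was -1.42 without miR-214-/- Ang II library 2 and -0.21 with the mean red-cell level as a covariate. Without miR-214-/- Ang II library 1 edgeR called 11 of the 23 red-cell genes and 3 of the 8 haem genes, all negative (background 3.79%).

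All 16 neutrophil genes were negative, with a median of -1.87, 10 at an unadjusted p under 0.05 and 2 called by DESeq2. These were genes of immature granulocytes. Ms4a3, which marks granulocyte-monocyte progenitors, measured 1.05, 1.51 and 0.911 CPM in WT sham, 12.1, 7.2 and 17.9 in WT Ang II, 4.40, 3.81 and 5.87 in miR-214-/- sham and 14.5, 6.40 and 8.78 in miR-214-/- Ang II, with an interaction of -2.34 ± 0.54 and a DESeq2 adjusted p of 0.00249. The granule protease Ctsg measured 3.93, 5.87 and 4.46 CPM in WT sham, 48.2, 28.3 and 43.4 in WT Ang II, 19.1, 8.83 and 19.7 in miR-214-/- sham and 51.3, 20.2 and 25.6 in miR-214-/- Ang II, with an interaction of -2.04 ± 0.54 and a DESeq2 adjusted p of 0.00595. In both, Ang II was above sham without overlap in each genotype, and miR-214-/- sham was above WT sham. The neutrophil sums were 243 to 329 CPM in WT sham, 1340 to 3907 in WT Ang II, 323 to 1225 in miR-214-/- sham and 728 to 3504 in miR-214-/- Ang II. All 6 basophil and mast cell genes were negative with a median of -1.36, and DESeq2 called Prss34 (-2.35 ± 0.67, adjusted p = 0.0438), a basophil protease. Without miR-214-/- Ang II library 1 edgeR called 3 of the 16 neutrophil genes as negative and 0 of the 6 basophil and mast cell genes (background 3.79% negative). limma voom with sample quality weights also called 0 of these 6 (background 5.07% negative). The neutrophil median was -3.01 without miR-214-/- Ang II library 2.

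**Figure D5:**
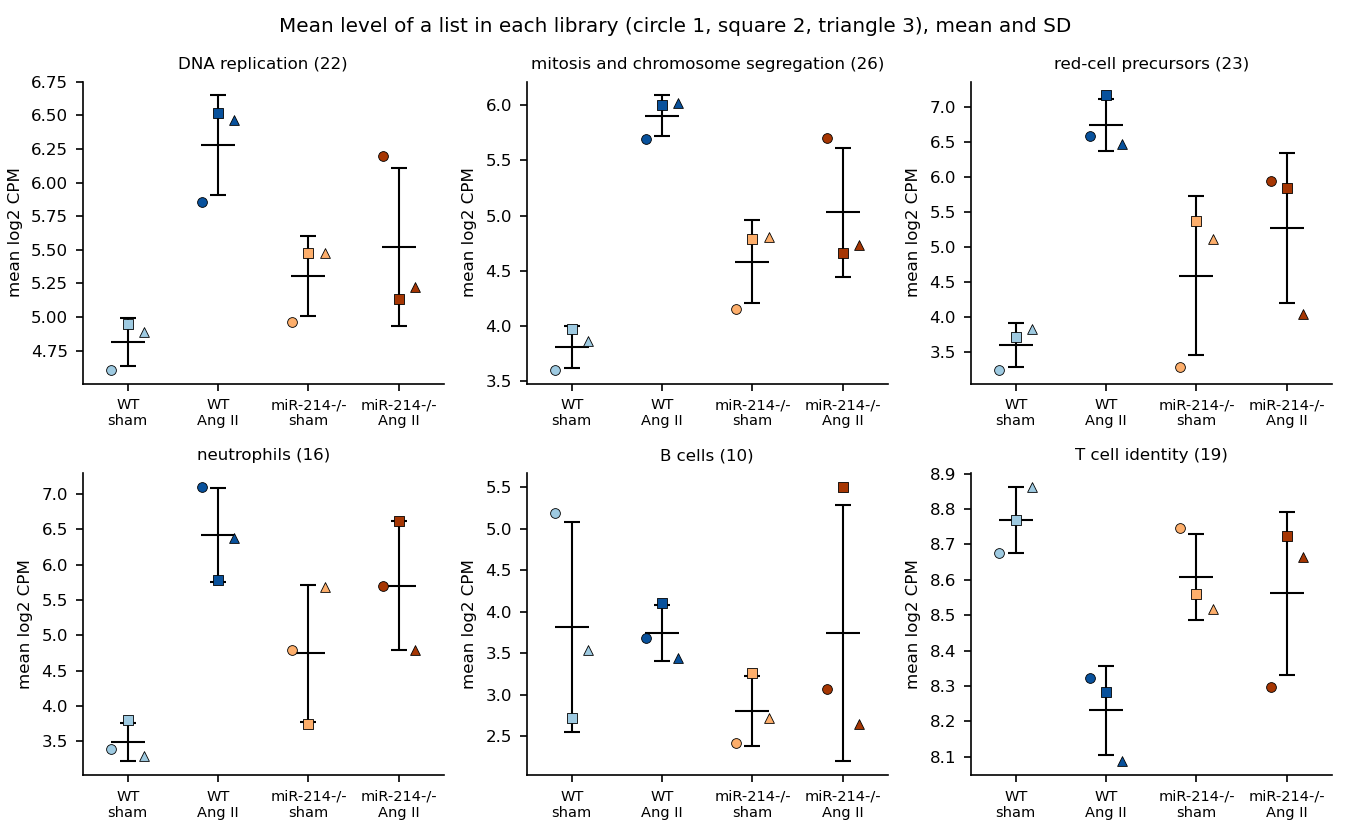
Mean log2 CPM of the members of 6 lists in each library of the 4 groups (circle, square and triangle for libraries 1, 2 and 3), with bars for the mean and SD of 3 libraries. For mitosis miR-214-/- Ang II library 1 stands at 5.70 and the other libraries of its group at 4.66 and 4.73, and the red-cell list runs from 3.24 to 7.16 over the 12 libraries.

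With the mean log2 CPM of the red-cell list as a covariate, edgeR called 0 genes, with 295 negative and 316 positive genes at an unadjusted p under 0.05. The median interaction of the mitotic genes was then -0.81 and that of the replication genes -0.48. Frmd4a had -1.23 with an adjusted p of 0.373 by edgeR's quasi-likelihood test. The red-cell level itself differed between the groups, and counts from red-cell precursors and from T cells cannot be told apart in these libraries.

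All 19 T cell identity genes were positive, with a median interaction of 0.54, 14 at an unadjusted p under 0.05 and 3 called by DESeq2 (Bcl11b, Cd4 and Trbc2). Bcl11b, the transcription factor that keeps T cell identity, measured 525, 518 and 603 CPM in WT sham, 354, 352 and 309 in WT Ang II, 518, 456 and 476 in miR-214-/- sham and 392, 491 and 513 in miR-214-/- Ang II, with an interaction of 0.64 ± 0.16 and a DESeq2 adjusted p of 0.0204. The coreceptor Cd4 measured 545, 524 and 573 CPM in WT sham, 363, 437 and 383 in WT Ang II, 494, 477 and 481 in miR-214-/- sham and 435, 512 and 572 in miR-214-/- Ang II, with an interaction of 0.54 ± 0.15, and the kinase Lck had one of 0.44 ± 0.21. In Bcl11b and Cd4, WT Ang II was below WT sham without overlap, and miR-214-/- Ang II overlapped miR-214-/- sham. The summed level of the list was 8162 to 9408 CPM in WT sham, 5442 to 6446 in WT Ang II, 7350 to 8575 in miR-214-/- sham and 6285 to 8495 in miR-214-/- Ang II. With the red-cell covariate the median of the list was 0.33, and without miR-214-/- Ang II library 1 edgeR called 8 of the 19 genes as positive (background 1.57%). The share of T cells in each library was not measured otherwise.

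Naive T cell genes were mostly positive too, 11 of 12 with a median of 0.42. Without miR-214-/- Ang II library 1 edgeR called 4 of the 12 as positive (background 1.57%). With the red-cell covariate the median of the naive list was 0.21. Foxo1, which maintains naive T cells, measured 342, 330 and 390 CPM in WT sham, 251, 241 and 259 in WT Ang II, 304, 262 and 273 in miR-214-/- sham and 249, 343 and 410 in miR-214-/- Ang II, with an interaction of 0.76 ± 0.21 and a DESeq2 adjusted p of 0.0395. The WT Ang II libraries were below WT sham without overlap, while miR-214-/- Ang II libraries 2 and 3 were above all miR-214-/- sham libraries and library 1 was below them. S1pr1, the receptor for exit from lymphoid organs, had an interaction of 0.73 ± 0.23, and Tcf7, the most abundant of the list, one of 0.40 ± 0.19. Of 14 cytotoxic and NK genes 11 were positive with a median of 0.47, led by the granzyme Gzmm (1.58 ± 0.52) and perforin, Prf1 (0.72 ± 0.24), neither called by DESeq2. The cytotoxic median was 0.26 without WT sham library 2, and edgeR called 1 of the 14 as positive without miR-214-/- Ang II library 1 (background 1.57%).

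Activation genes were divided, with 9 of 20 negative, a median of 0.03 and 1 gene at an unadjusted p under 0.05 in each direction. The median was -0.03 with library totals alone as the scaling, and ran from -0.07 to 0.08 with 1 library left out. edgeR called 0 of the 20 without miR-214-/- Ang II library 1 (background 5.35%). Cd44, the adhesion receptor raised on effector and memory T cells, measured 99.6, 109 and 106 CPM in WT sham, 183, 145 and 179 in WT Ang II, 96.3, 107 and 118 in miR-214-/- sham and 128, 119 and 123.4 in miR-214-/- Ang II. WT Ang II was the highest group without overlap, and miR-214-/- Ang II was above miR-214-/- sham by a small step, with an interaction of -0.48 ± 0.14 and a DESeq2 adjusted p of 0.0493. The helper ligand Cd40lg had one of 0.52 ± 0.18. Of 10 regulatory T cell genes 4 were negative and 6 positive, with a median of 0.08 (0.0056 without WT sham library 3, 0.18 without WT sham library 2), and their most abundant member Ikzf2 had -0.02 ± 0.25. Of 21 adhesion and integrin genes 14 were positive, with a median of 0.11, 2 at an unadjusted p under 0.05 in each direction and only Cd44 called by DESeq2. The adhesion median was 0.01 with the red-cell covariate and 0.22 without miR-214-/- Ang II library 1. Without that library edgeR called 1 gene as negative (background 3.79%) and 3 as positive (background 1.57%).

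Chemokine receptors were evenly split by sign, 9 negative and 9 positive. At an unadjusted p under 0.05 by edgeR, 4 of the 18 were negative (22.2%, background 8.26%) and 1 was positive (5.56%, background 6.55%). Their median was -0.00323, and it ran from -0.17 without WT sham library 2 to 0.21 without WT Ang II library 1. edgeR called 0 of the 18 as negative (background 3.79%) and 1 as positive (background 1.57%) without miR-214-/- Ang II library 1. Cxcr4, the receptor that holds cells in bone marrow, measured 196, 161 and 219 CPM in WT sham, 190, 235 and 238 in WT Ang II, 233, 221 and 183 in miR-214-/- sham and 108, 179 and 122.5 in miR-214-/- Ang II, with an interaction of -0.84 ± 0.26 and a DESeq2 adjusted p of 0.0427. Unlike most genes named here, its WT groups overlapped and its miR-214-/- Ang II libraries were below miR-214-/- sham without overlap. Cxcr5, the receptor for B cell follicles, measured 54.3, 46.7 and 49.5 CPM in WT sham, 45.4, 49.8 and 42.8 in WT Ang II, 41.6, 42.0 and 39.9 in miR-214-/- sham and 46.7, 60.8 and 55.2 in miR-214-/- Ang II, with an interaction of 0.52 ± 0.14 and a DESeq2 adjusted p of 0.0640. Its miR-214-/- Ang II libraries were above miR-214-/- sham without overlap and its WT groups overlapped. Ccr7, the lymph node homing receptor and the most abundant of the list, had 0.45 ± 0.29.

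Of 12 genes of angiotensin and steroid signalling 6 passed the filter, 4 negative and 2 positive, with a median of -0.12. The median was 0.27 with the red-cell covariate, 0.05 without WT Ang II library 2 and -0.02 without miR-214-/- Ang II library 1. Without the latter edgeR called 1 gene as negative (background 3.79%) and 1 as positive (background 1.57%). Agtr1a, the main Ang II receptor, was low throughout and measured 0.262, 0.357 and 0.820 CPM in WT sham, 3.41, 8.13 and 6.69 in WT Ang II, 0.291, 3.02 and 1.83 in miR-214-/- sham and 5.29, 1.27 and 0.306 in miR-214-/- Ang II. WT Ang II was above WT sham without overlap, and in miR-214-/- the highest value was that of Ang II library 1 and the lowest that of sham library 1. Its interaction was -3.23 ± 1.31, not called by DESeq2 (adjusted p = 0.198), and it became 0.71 with the red-cell covariate. Hsd11b1, which regenerates active glucocorticoid, had 0.95 ± 0.33, and the glucocorticoid receptor Nr3c1 -0.06 ± 0.11. Of 15 tested TGF-beta pathway genes 13 were positive, with a median of 0.28, 5 at an unadjusted p under 0.05 and 0 called by DESeq2. They included the ligand Tgfb3 (1.44 ± 0.46, between 0.883 and 3.23 CPM), the receptor Tgfbr2 (0.28 ± 0.20) and the inhibitor Skil (0.44 ± 0.14). With the red-cell covariate the TGF-beta median was 0.04. With 1 library left out it ran from 0.18 without miR-214-/- Ang II library 3 to 0.42 without miR-214-/- Ang II library 1. Without the latter edgeR called 3 of the 15 as positive (background 1.57%).

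Genes known as miR-214 targets were then read. Of 12 tested, 8 were negative and 4 positive, with a median of -0.05, 3 negative and 1 positive at an unadjusted p under 0.05, and Map2k3 and Ezh2 called by DESeq2. The median of the targets ran from -0.10 without WT sham library 2 to -0.00038 without WT sham library 1. Ezh2, the Polycomb methyltransferase of dividing cells, measured 43.1, 47.9 and 40.6 CPM in WT sham, 78.4, 105 and 103 in WT Ang II, 46.1, 61.7 and 58.9 in miR-214-/- sham and 87.8, 44.0 and 51.5 in miR-214-/- Ang II, with an interaction of -0.98 ± 0.32 and a DESeq2 adjusted p of 0.0484. WT Ang II was above WT sham without overlap, and the miR-214-/- groups overlapped.

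The mRNA letters that pair with the miR-214-3p seed are CCTGCTG, with CCTGCTGA as the extended form. An annotated 3′ UTR was found for 13105 of the tested genes, of which 3026 held CCTGCTG on the mRNA strand. The median interaction was 0.01 with the site and -0.00137 over all genes with a 3′ UTR. With the site, 276 genes (9.12%) were negative and 234 (7.73%) positive at an unadjusted p under 0.05, against 9.69% and 6.58% of all genes with a 3′ UTR. The 749 genes with CCTGCTGA had a median of 0.01, and the 1336 genes with a miR-214-5p site (GACAGGC) one of -0.00204. With library totals alone these medians were -0.06 with CCTGCTG or CCTGCTGA, -0.07 with GACAGGC and -0.07 over all genes with a 3′ UTR. Of the 12 negative genes named by the rule, 0 held a miR-214-3p site in the longest annotated 3′ UTR, and of the 12 positive genes 3 did, among them Klf7 and BC147527 with 1 site each. Of the known targets called by DESeq2, Ezh2 held 0 miR-214-3p and 0 miR-214-5p sites in its longest annotated 3′ UTR. Map2k3 held 0 miR-214-3p sites and 1 miR-214-5p site. A site is a match of letters and does not show that miR-214 acts there.

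The sites of Klf7 and BC147527 and of Foxo1, the naive T cell gene called by DESeq2, are printed below with 10 bases on either side and the pairing letters in capitals. They lie in GRCm38 at chr1:64031849-64031875 (Klf7, minus strand), chr13:120308711-120308737 (BC147527, plus strand) and chr3:52349160-52349187 (Foxo1, plus strand). All are exonic, in the 3′ UTR. The Foxo1 site is the extended form.

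Klf7: ccccactctcCCTGCTGccacctcccc
BC147527: tctgtcagctCCTGCTGttacagcata
Foxo1: cagtggtctaCCTGCTGAatgccactga

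Genes within 5 Mb of Mir214 on chromosome 1 were read as a group of their own, since the strain of the sequence around the deletion was not given. Of 52 tested, 24 were negative and 28 positive, with a median of 0.03 (-0.04 with library totals alone, 0.09 without miR-214-/- sham library 1). At an unadjusted p under 0.05 by edgeR, 6 were negative (11.5%, background 8.26%) and 3 positive (5.77%, background 6.55%). Of 49 that DESeq2 tested, it called 2 negative and 1 positive, together 6.12% against 3.22% of all genes. Without miR-214-/- Ang II library 1 edgeR called 2 of 53 as negative and 4 as positive, together 11.3% against 5.35%. limma voom with sample quality weights called 5 of 52 as negative and 5 as positive, together 19.2% against 8.02%. Whether the locus differs from the rest was not tested.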

How the data were processed

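RNASeq counts of splenic T cells were analysed. The authors captured mRNA with oligo(dT), sequenced read pairs, trimmed them with Trimmomatic, mapped them to GRCm38 with STAR and counted unique exonic reads per gene with featureCounts (Subread 1.5.2), and the deposited values are these raw counts. Reads with several places were not counted, so genes with near-identical copies, such as the alpha-globins and the Ly6 genes, are uncertain. The strand setting and annotation release are not given in the sources used here, so overlapping and antisense genes are uncertain too. Of 49315 identifiers 49056 matched the GRCm38 annotation. A count of 0 allows up to 3 counts, for counting error only.

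Counts were fitted over 12 libraries with genotype, treatment and their product in edgeR 4.0.16 (R 4.3.3), with filterByExpr, TMM scaling and the default quasi-likelihood test. Benjamini-Hochberg adjustment ran over 16770 genes, and genes were called at an adjusted p under 0.05. SE came from the log2 value and its F statistic, and log2 CPM used a prior count of 2. DESeq2 1.42.0, limma 3.58.1 (voom with sample quality weights), other scalings and filters, a replicate block, a red-cell covariate and leaving out each library were alternatives. Scripts were tested on simulated counts. With 3 libraries a group, an exact permutation test of 2 groups cannot go below 0.1, so single values were not permuted. Libraries came from separate mice, and 0 of 12 replicate pairs were copies of each other.

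Named genes were those called, the 12 protein-coding genes with the smallest p in each direction at a mean log2 CPM above 1, and from each of 24 lists the 2 members with the smallest p and the most abundant one, 89 in all, of which some are not reported here. The lists of pathways and cell markers were written by hand, and the members and lists were chosen with earlier results of these data known. Ccnb1, Trbc2 and genes given only as exceptions were named after their values were seen. Promoter and microRNA sequences are from RefSeq, and 3′ UTR sites from the longest annotated 3′ UTR in GRCm38.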

Additional observations from a re-analysis of the deposited data

Results flagged for a closer look

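The change after Ang II in Frmd4a differed between WT and miR-214-/- by a test of the difference itself. The interaction was -1.51 on the log2 scale, with an adjusted p of 0.0109 by edgeR's quasi-likelihood test. Its change was 1.35 in WT, where all 3 Ang II libraries were above all 3 sham libraries, and -0.16 in miR-214-/-, where the groups overlapped. What lies behind the difference was not tested.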

How the results depend on the processing

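The count of 1 gene called was the same under RLE scaling, library totals alone, no filter, 10 counts in every library, the robust fit and the adjusted-deviance fit. It was 444 with DESeq2's Wald test, 1345 with limma voom and sample quality weights, which gave miR-214-/- Ang II library 1 the lowest weight (0.406), and 0 with the red-cell covariate. Leaving out 1 library gave between 0 and 919 genes, and without both miR-214-/- libraries numbered 1, chosen after seeing the data, 1550 genes were called. The causes of these shifts were not tested. At an unadjusted p under 0.05 the counts were 2392 negative and 2328 positive with voom, 295 and 316 with the covariate, and 2286 and 2250 without both libraries. Leaving out 1 library gave 938 to 2071 negative and 697 to 1929 positive genes.

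Over 85 named genes and all settings, 1731 of 1953 values kept their sign and their side of the threshold, 194 were newly called, 5 of Frmd4a were no longer called and 23 turned round. Without miR-214-/- Ang II library 1 edgeR newly called 48 of the named genes, and voom newly called 53. Over all genes tested, these settings called 5.35% and 8.02%. The named genes were picked largely by a small interaction p in the same data, so nothing is read from these counts. With the red-cell covariate the sign turned for Itgb3 (-0.12), Jchain (1.08), Ikzf2 (0.30), Stat3 (-0.12), Agtr1a (0.71) and Sdc1 (0.39). Ly6e turned with voom (0.10) and without both libraries numbered 1 (0.13), and Nr3c1 without both (0.0024). With 1 library left out, values ran from -0.085 to 0.075 for Ly6e, -0.19 to 0.12 for Ikzf2, -0.73 to 0.0032 for Ccr2, -1.96 to 1.58 for Hbb-bs, -0.0060 to 0.22 for Itgb3 and -0.12 to 0.023 for Nr3c1. These genes were not called by edgeR over all 12 libraries.

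The main fit did not pair libraries by replicate number. Correlations of deviations from the group means ran from -0.56 to 0.34 between same-numbered libraries of different groups. Between differently numbered libraries they ran from -0.36 to 0.48. With 3 libraries a group, a batch shared by number cannot be told from these values. With the replicate block edgeR called 1 gene, Frmd4a, with an adjusted p of 0.0189. Each group held 3 libraries, with at least 21126874 counts in each library.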

Other observations

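Of 21 interferon-stimulated genes 18 were positive, with a median of 0.30, 4 at an unadjusted p under 0.05 and 1 called by DESeq2. The median was 0.53 without WT Ang II library 1, 0.12 without miR-214-/- sham library 2 and 0.12 with the red-cell covariate. That gene was Usp18, which removes ISG15 from proteins and restrains interferon signalling. It measured 35.5, 32.5 and 36.2 CPM in WT sham, 22.3, 21.6 and 20.8 in WT Ang II, 32.6, 18.8 and 27.4 in miR-214-/- sham and 27.6, 40.7 and 33.2 in miR-214-/- Ang II, with an interaction of 1.05 ± 0.26 and a DESeq2 adjusted p of 0.0138. WT Ang II was below WT sham and below miR-214-/- Ang II without overlap. Ifit2 (0.54 ± 0.16), an antiviral RNA-binding protein, was not called. Of 18 immediate early genes, which respond within minutes to handling or receptor signals, 8 were negative and 10 positive with a median of 0.03, which was -0.03 with library totals alone and ran from -0.11 to 0.12 with 1 library left out. DESeq2 called Egr3 (0.74 ± 0.18, adjusted p = 0.0173), a T cell receptor-induced factor that measured 10.8, 11.6 and 12.6 CPM in WT sham, 8.19, 8.77 and 9.62 in WT Ang II, 9.14, 10.8 and 8.84 in miR-214-/- sham and 11.8, 12.5 and 12.2 in miR-214-/- Ang II. Ang II was below sham in WT and above sham in miR-214-/-, both without overlap. Junb had 0.38 ± 0.21 and Jund 0.52 ± 0.23.

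Of 21 cytokine genes 14 passed the filter, 5 negative and 9 positive, with a median of 0.17 and 0 called by DESeq2. The median was 0.02 without WT Ang II library 3, 0.06 without miR-214-/- Ang II library 1 and 0.29 with the red-cell covariate. The lymphotoxin gene Lta measured 16.7, 13.8 and 13.8 CPM in WT sham, 11.5, 11.7 and 8.22 in WT Ang II, 13.1, 13.4 and 12 in miR-214-/- sham and 13.7, 15.6 and 14.1 in miR-214-/- Ang II, with an interaction of 0.67 ± 0.21, and its partner Ltb had one of 0.61 ± 0.27. Ang II was below sham in WT and above sham in miR-214-/- in every Lta library. In the Ly6 family of surface proteins 4 of 8 genes were negative, with a median of 0.03, which was -0.04 with library totals alone and ran from -0.07 to 0.27 with 1 library left out. Ly6c1, a marker of memory T cells, measured 18.8, 21 and 16.1 CPM in WT sham, 13.1, 13.2 and 13.9 in WT Ang II, 19.7, 12.5 and 14.6 in miR-214-/- sham and 17.8, 23.9 and 24.1 in miR-214-/- Ang II, with an interaction of 0.97 ± 0.25 and a DESeq2 adjusted p of 0.0214. Ly6a (Sca-1) had 0.64 ± 0.21 and Ly6e -0.02 ± 0.16. Stat3, a transducer of cytokine signals, had 0.14 ± 0.18.

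Markers of other splenic cells were uneven. All 10 B cell genes were positive with a median of 2.00, 1 at an unadjusted p under 0.05 (background 6.55%) and 0 called by DESeq2. The summed B cell level was highest in miR-214-/- Ang II library 2 (526 CPM) and WT sham library 1 (412 CPM). Without miR-214-/- Ang II library 2 the B cell median was 0.43. The B cell receptor component Cd79a had 1.33 ± 1.0, the inhibitory receptor Cd22 2.04 ± 1.0 and the IgE receptor Fcer2a 2.91 ± 1.29. All 5 plasma cell genes were negative with a median of -1.85, 1 at an unadjusted p under 0.05 (background 8.26%) and 0 called by DESeq2. The plasma cell median was 0.39 with the red-cell covariate and -2.79 without miR-214-/- Ang II library 1. All 14 macrophage and monocyte genes were negative with a median of -0.69, 0 at an unadjusted p under 0.05 and 0 called by DESeq2, and the median was 0.24 without WT Ang II library 1 and -1.13 without WT Ang II library 2. Of 9 megakaryocyte genes 8 were negative with a median of -0.62, 1 at an unadjusted p under 0.05 (background 8.26%) and 0 called by DESeq2. The megakaryocyte median was -0.12 with the red-cell covariate.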
